A study of Mus musculus with 36 samples.

Results

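The genes described here are 7 growth and metabolic hormones, or binding partners of such hormones, that the liver makes: Fgf21, Fgf1, Igf1, Igfals, Igfbp1, Igfbp2 and Angptl4. They were chosen by gene symbol, as 7 of the 16593 genes on the array, and the array carried 9 probes for them, 1 each for Fgf21, Igf1, Igfals, Igfbp1 and Angptl4 and 2 each for Fgf1 and Igfbp2. These are 9 of the 25697 probes on the array, and all 9 were among the 12289 probes bright enough to be tested. Where a gene had 2 probes they are called the brighter and the dimmer probe, after their mean over all mice. The livers came from 36 male C57BL/6J mice, 1 beadchip array per mouse, killed at 9 weeks of age after a 4-hour fast. In a group's name the dam's diet precedes the diet that the pup ate once weaned. HF is high in fat and low in carbohydrate, LF is the reverse, and coconut oil was the main fat of both. There were 10 HF_HF mice (4 cages), 8 LF_HF mice (4 cages), 9 HF_LF mice (5 cages) and 9 LF_LF mice (4 cages). Fat and carbohydrate cannot be told apart in any comparison. Maternal diet did not vary within a cage, with 6 of the 12 cages under HF dams and 6 under LF dams, so litter or cage and maternal diet are separated only through these cages. The paper divided the males of each cage between the diets at weaning, and the labels do not give their housing afterwards.

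Fgf21 is a hormone that the liver releases in fasting, in ketogenic or protein-poor feeding and under cell stress, and it signals through FGF receptors joined to the co-receptor beta-klotho. Insulin-like growth factor 1, encoded by Igf1, is the hepatic effector of growth hormone and acts on body growth. In blood most of it is held in a complex with a binding protein and the acid-labile subunit, which Igfals encodes. Igfbp1 and Igfbp2 encode binding proteins for the same ligand, and insulin represses Igfbp1 transcription within hours. Fgf1 is a heparin-binding growth factor without a classical signal peptide. Angptl4 is an inhibitor of lipoprotein lipase that fasting, fatty acids and glucocorticoids induce.

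Promoters are shown for Fgf21 and Igfbp2, which fell on the HF diet in pups of HF dams, and for Igfbp1, which is set against body size. Igf1, which rose in that comparison, is not printed, and its window held no match to the sequence elements marked here. RefSeq promoter entries on GRCm38.p6 matched 5 of the 7 genes, with 8 start sites, and Fgf1 and Angptl4 were not matched. The 250 bases before the first start site are printed 5′ to 3′ on the strand of the gene, with capitals for matches on either strand to TGATGNAA (bound by ATF4 with C/EBP partners), CACGTG (the E-box), CAAAACA and CAAAATA (core motifs of insulin response elements) and TATAAA (the TATA box). The windows are chr7:45615491-45615740 on the minus strand for Fgf21, chr11:7197537-7197786 on the plus strand for Igfbp1 and chr1:72824230-72824479 on the plus strand for Igfbp2.
Fgf21: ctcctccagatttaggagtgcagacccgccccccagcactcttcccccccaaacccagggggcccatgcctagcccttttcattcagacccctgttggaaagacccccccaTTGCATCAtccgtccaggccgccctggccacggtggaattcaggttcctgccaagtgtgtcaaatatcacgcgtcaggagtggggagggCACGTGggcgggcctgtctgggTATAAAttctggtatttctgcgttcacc
Igfbp1: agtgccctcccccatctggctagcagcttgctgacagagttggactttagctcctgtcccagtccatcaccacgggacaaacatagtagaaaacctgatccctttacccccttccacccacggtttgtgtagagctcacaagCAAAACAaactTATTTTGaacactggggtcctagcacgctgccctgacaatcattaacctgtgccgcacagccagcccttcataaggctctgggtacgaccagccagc
Igfbp2: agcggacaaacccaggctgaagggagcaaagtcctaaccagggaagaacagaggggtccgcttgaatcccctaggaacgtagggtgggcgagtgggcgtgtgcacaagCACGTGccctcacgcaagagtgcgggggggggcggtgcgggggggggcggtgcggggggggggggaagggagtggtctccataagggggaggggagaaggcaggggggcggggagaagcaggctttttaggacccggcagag

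The Fgf21 window held the reverse complement of TGATGNAA with its first base at position -139 from the start site, an E-box at -50 and a TATA box at -28. The Igfbp1 window held CAAAACA at -108 and the reverse complement of CAAAATA at -97. The Igfbp2 window held 1 E-box, at -142 from the first start site. The windows of Igf1, of Igfals and of the second Igfbp2 start site, not printed, held no match to any of these motifs. Of the 32851 promoter windows of this length, 3.45% held TGATGNAA, 6.02% held CACGTG, 5.56% held CAAAACA, 3.95% held CAAAATA and 12.4% held TATAAA. A match describes these letters and not a bound site.

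Each array's correlations with the remaining arrays had a median of 0.985 to 0.992, and all arrays share 1 distribution of values. The summed intensity of 5 hepatocyte markers ranged from 54580 to 67770 in HF_HF, from 63030 to 68700 in LF_HF, from 56010 to 66700 in HF_LF and from 61600 to 68460 in LF_LF. A sum does not show each marker, and 4 of the 5 were bright enough to be tested, Tat being the exception. In these whole livers fewer cells of a type and less RNA per cell cannot be told apart. A pair of mice stood apart in the members. LF_HF replicate 8, from cage 11, had an Fgf21 intensity of 1176, against 94 to 160.5 in the other mice of its group. HF_LF replicate 4, from cage 1, had the highest Fgf21 (634.3) and Igfbp1 (158.6) and the lowest Igf1 (3859), Igfals (1518) and Fgf1 (374.4 at the brighter probe) of its group.

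The diet after weaning was tested first in pups of HF dams, HF_HF against HF_LF. In this comparison Igf1 rose, and Fgf21 and Igfbp2 fell on the HF diet, by 0.29, -0.73 and -0.72 on the log2 scale (brighter probe of Igfbp2), while Fgf1, Igfals, Igfbp1 and Angptl4 did not pass. The test was limma on log2 intensities with the Benjamini-Hochberg false discovery rate held at 5% over all 12289 probes. Of the 9 member probes 1 rose, against 5.15% of all probes tested, and 3 fell, against 6.11% of all probes tested.

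Fgf21 intensity was 115.9 at the lowest, 166 at the median and 246.7 at the highest in HF_HF, against 183, 262.2 and 634.3 in HF_LF. All 10 HF_HF mice lay below the HF_LF median and 6 lay below every HF_LF mouse, so the groups overlapped. The difference was -0.73 ± 0.20 (SE) on the log2 scale, a 0.601-fold level (adjusted p = 0.0172, limma). Without HF_LF replicate 4 it was -0.59 ± 0.17 (adjusted p = 0.0259). The call was lost when the spread was estimated from all 4 groups, which brings in LF_HF replicate 8 (adjusted p = 0.0835), and without cage 20, 21 or 23 (adjusted p = 0.0629, 0.0526 and 0.100). The 3 cages that held pups on both diets gave a lower mean on HF each time: 136.8 in HF_HF against 225.8 in HF_LF in cage 10, 188.5 against 384.9 in cage 20 and 184.9 against 346.3 in cage 23.

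Igf1 intensity ranged from 5306 to 6075 with a median of 5684 in HF_HF, against 3859 to 5657 with a median of 4662 in HF_LF. All 10 HF_HF mice lay above the HF_LF median and 5 lay above every HF_LF mouse. The rise was 0.29 ± 0.06 on the log2 scale or 1.23-fold (adjusted p = 0.00155, limma). It passed in all 33 alternatives run for this comparison, which include leaving out each of the 19 mice and each of the 6 cages, with adjusted p from 0.000278 to 0.0445. In cages with both diets the means were 5531 in HF_HF against 4731 in HF_LF (cage 10), 5818 against 4675 (cage 20) and 5973 against 4570 (cage 23).

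Igfbp2 was lower at both of its probes. At the brighter probe HF_HF mice ranged from 631.7 to 2330 with a median of 1484, against 1592 to 2717 with a median of 2206 in HF_LF. Of the 10 HF_HF mice, 8 lay below every HF_LF mouse, and 1, replicate 4, lay above the HF_LF median. The brighter probe fell by 0.72 ± 0.16 on the log2 scale (adjusted p = 0.00638) and the dimmer probe, with medians of 1304 in HF_HF and 1931 in HF_LF, fell by 0.77 ± 0.19 (adjusted p = 0.0125). The call of the brighter probe held in all 33 alternatives (adjusted p of 0.00139 to 0.0478), and that of the dimmer probe was lost with 1 mean per cage (adjusted p = 0.0788) and without cage 23 (adjusted p = 0.0760). Within cage 10 the brighter probe averaged 631.7 in HF_HF against 1812 in HF_LF, within cage 20 1360 against 2717 and within cage 23 1690 against 2271.

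**Figure D1:**
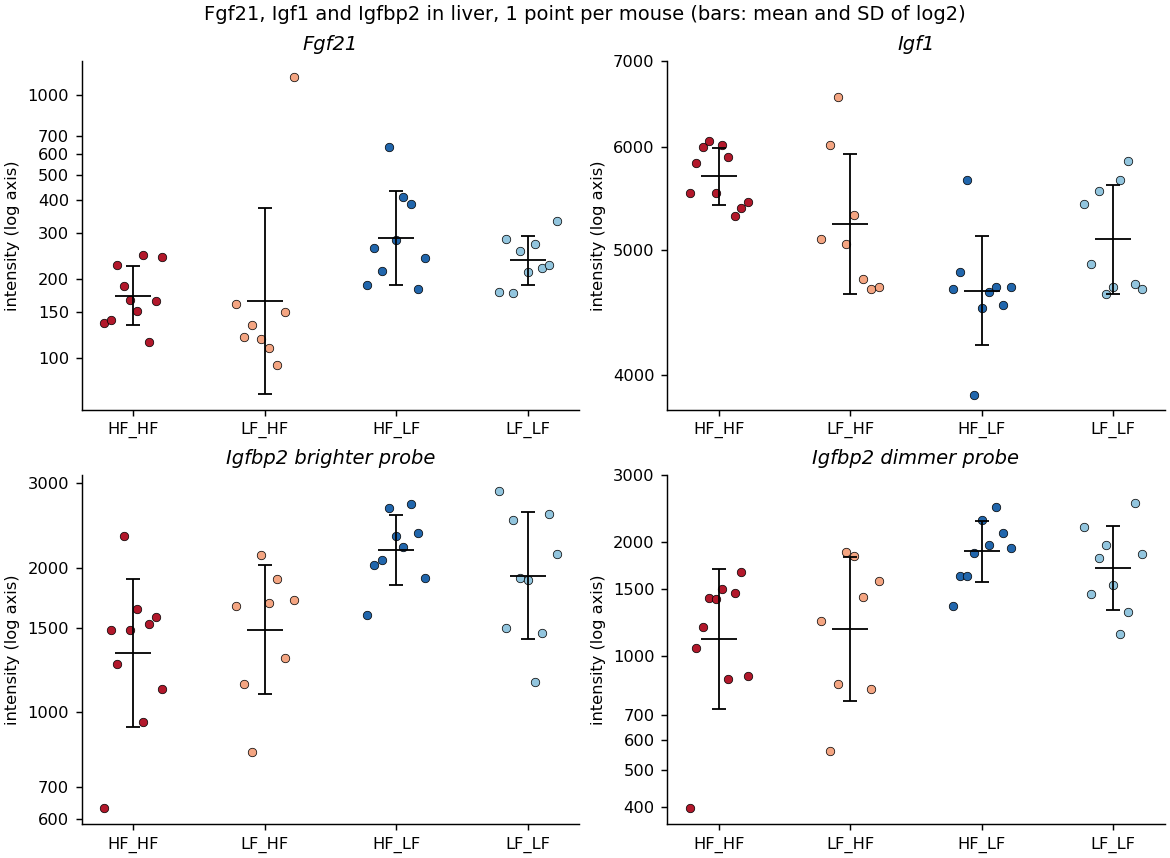
Intensity (log axis) of Fgf21, Igf1 and both Igfbp2 probes in the liver of each mouse, by diet of the dam and then of the pup, with the mean and SD of the log2 values as bars. HF_HF lies below HF_LF for Fgf21 and Igfbp2 and above it for Igf1, and LF_HF replicate 8 stands at 1176 for Fgf21.

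No other member passed between HF_HF and HF_LF. The brighter Fgf1 probe ranged from 827.1 to 1219 in HF_HF, against 374.4 to 1102 in HF_LF, a difference of 0.35 ± 0.15 (adjusted p = 0.136). It passed with cage as a fixed block (0.47, adjusted p = 0.0439) and without cage 12 (0.50, adjusted p = 0.0293), while without HF_LF replicate 4 it was 0.22 ± 0.11 (adjusted p = 0.225). Its dimmer probe differed by 0.06 ± 0.12 (adjusted p = 0.834). Igfals, whose product carries the circulating Igf1 complex, had medians of 2503 in HF_HF and 2183 in HF_LF (difference 0.21 ± 0.09, adjusted p = 0.143), and passed without cage 10 (0.30, adjusted p = 0.0384). Igfbp1 had medians of 80.9 in HF_HF and 88.2 in HF_LF (difference -0.28 ± 0.13, adjusted p = 0.161, and 0.10 with cage as a fixed block), and Angptl4 had medians of 2997 in HF_HF and 2757 in HF_LF (difference 0.03 ± 0.12, adjusted p = 0.906). The 95% interval of the Angptl4 difference ran from -0.22 to 0.29 on the log2 scale. For Angptl4 4 HF_HF mice lay at 2270 or below, 3 of them from cage 21 and 1 from cage 10, and the other 6 lay at 2922 or above.

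Markers of other cells moved in this comparison too. Cela1, an elastase of the exocrine pancreas, rose by 0.81 ± 0.23 (adjusted p = 0.0264) and was the 1 of 5 listed acinar markers bright enough to test. The 3 acinar markers on the array summed to 409.9 to 1988 in HF_HF, against 369.1 to 778.3 in HF_LF. Of the red blood cell markers, Hba-a1, a globin with a near-identical copy that the probe may not separate, fell by 0.48 ± 0.15 (adjusted p = 0.0414) and Alas2, the first enzyme of erythroid haem synthesis, rose by 0.30 ± 0.09 (adjusted p = 0.0325), and their sum ranged from 4819 to 9829 in HF_HF, against 6710 to 14690 in HF_LF. No tested marker of hepatocytes (4), macrophages (4), endothelium (5), stellate cells (5), cholangiocytes (2), adipocytes (1) or lymphocytes (2) passed. The part of these cells in the differences of Fgf21, Igf1 and Igfbp2 was not tested.

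In pups of LF dams the same diets were compared as LF_HF against LF_LF. No member probe passed, against 1.77% of all probes that rose and 1.29% that fell, and 1 of the 9 (the dimmer Igfbp2 probe) had an unadjusted p under 0.05. For Fgf21 this outcome rests on 1 mouse. Fgf21 intensity was 94 at the lowest, 127 at the median and 1176 at the highest in LF_HF, against 177.6, 227.2 and 334.2 in LF_LF. Of the 8 LF_HF mice, 7 lay below every LF_LF mouse and replicate 8 lay above every one. With all mice the difference was -0.51 ± 0.34 on the log2 scale (adjusted p = 0.494). Without replicate 8 it was -0.92 ± 0.13 (adjusted p = 0.000894, limma), in a fit where 1.08% of all probes fell, and without the whole of cage 11 it was -0.90 (adjusted p = 0.00188). In cage 4, the other cage with both diets, Fgf21 averaged 127 in LF_HF against 246.9 in LF_LF, and in cage 11 the LF_HF mice stood at 149.8 and 1176 against 227.2 and 334.2 in LF_LF.

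Igfbp2 had lower medians in LF_HF at both probes without passing. The brighter probe ranged from 827.1 to 2124 with a median of 1677 in LF_HF, against 1156 to 2893 with a median of 1904 in LF_LF (difference -0.38 ± 0.18, adjusted p = 0.314). The dimmer probe ranged from 562.9 to 1886 in LF_HF, against 1140 to 2534 in LF_LF (difference -0.53 ± 0.21, adjusted p = 0.190). With cage as a fixed block the dimmer probe passed, at -1.04 (adjusted p = 0.0340). In cage 4 it averaged 702.4 in LF_HF against 1545 in LF_LF, and in cage 11 it averaged 1199 against 2196.

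Igf1 did not pass in these pups. It ranged from 4662 to 6564 with a median of 5071 in LF_HF, against 4622 to 5856 with a median of 4871 in LF_LF. Of the 8 LF_HF mice, 2 lay above every LF_LF mouse. The difference was 0.04 ± 0.08 (adjusted p = 0.870), with a 95% interval from -0.12 to 0.20. In cage 4 Igf1 averaged 6297 in LF_HF against 4985 in LF_LF, and in cage 11 it averaged 4669 against 4682. Igfals (0.06 ± 0.10), Igfbp1 (-0.15 ± 0.11), Angptl4 (-0.18 ± 0.10) and the Fgf1 probes (-0.14 ± 0.13 and -0.06 ± 0.13) did not pass either, with adjusted p from 0.370 to 0.877.

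**Figure D2:**
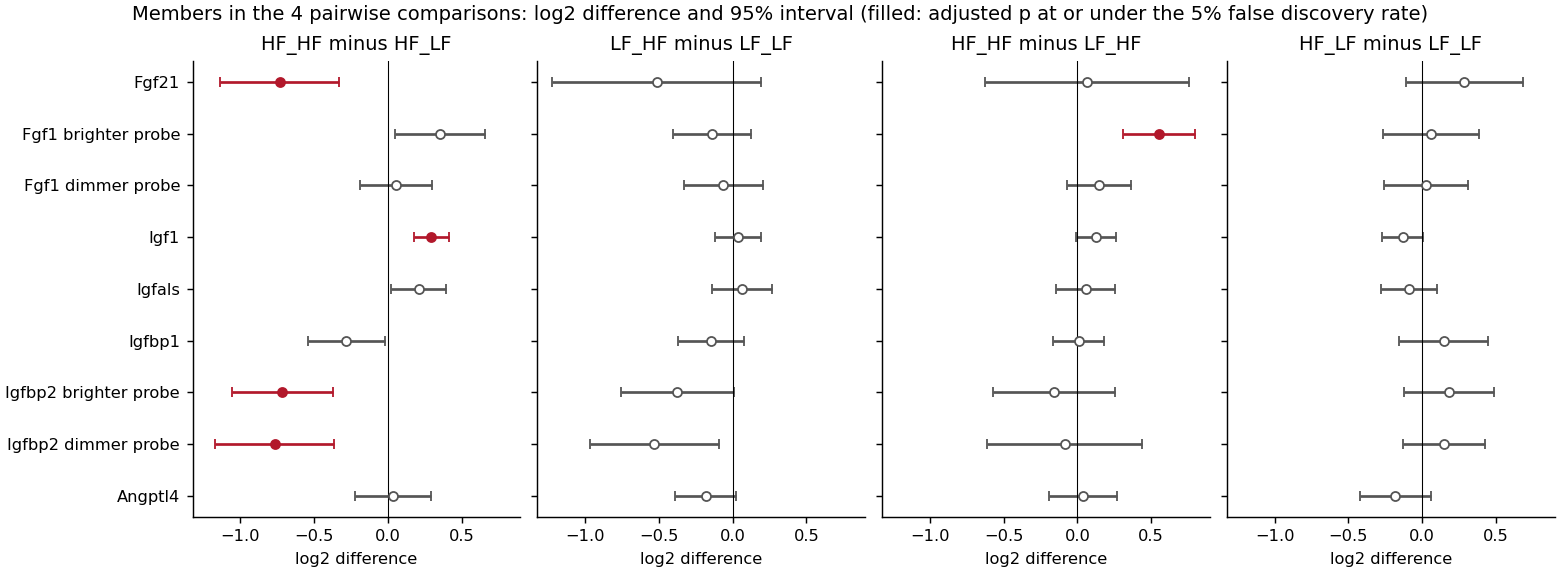
Log2 difference (point) and its 95% interval (bar) of each member probe in the 4 pairwise comparisons, with filled red points where the adjusted p was at or under 0.05. Igf1, Fgf21 and both Igfbp2 probes passed between HF_HF and HF_LF, the brighter Fgf1 probe passed between HF_HF and LF_HF, and the other intervals belong to differences that did not pass.

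The maternal diet was tested among pups that ate the same diet. On the HF diet, HF_HF against LF_HF, the brighter Fgf1 probe rose and no other member passed, so 1 of 9 probes rose against 0.0732% of all probes, and 0 fell against 0.195% of all probes. Fgf1 intensity at that probe was 827.1 at the lowest, 989.4 at the median and 1219 at the highest in HF_HF, against 462.7, 683.6 and 1110 in LF_HF. All 10 HF_HF mice lay above the LF_HF median, and 7 of the 8 LF_HF mice lay below every HF_HF mouse, the exception being replicate 1, the only LF_HF mouse of cage 14. The difference was 0.55 ± 0.12 on the log2 scale, or 1.47-fold (adjusted p = 0.0467, limma).

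This Fgf1 call was close to the threshold and most alternatives ended it. The adjusted p was 0.0870 with cage as a random block, 0.0817 with all 4 groups in 1 fit, 0.0653 with no filter on dim probes and 0.778 with 1 mean per cage. It was above 0.05 for 15 of the 18 mice left out in turn and for 7 of the 8 cages, while the difference was 0.43 to 0.66 on the log2 scale over all 33 alternatives. The dimmer probe, which followed the brighter one across mice with r = 0.727 within groups, had medians of 232 in HF_HF and 200.8 in LF_HF, with all 10 HF_HF mice above the LF_HF median, and differed by 0.14 ± 0.10 (adjusted p = 0.634). Of the within-group variance of the brighter probe, 73.7% lay between the 17 combinations of cage and group, which hold 40.6% of the within-group degrees of freedom.

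Igf1 had medians of 5684 in HF_HF and 5071 in LF_HF, with all 10 HF_HF mice above the LF_HF median, and the difference of 0.12 ± 0.07 did not pass (adjusted p = 0.495). For Fgf21 the medians were 166 in HF_HF and 127 in LF_HF, with 9 of 10 HF_HF mice above the LF_HF median, and the difference with all mice was 0.07 ± 0.33 (adjusted p = 0.966). Without LF_HF replicate 8 it was 0.47 ± 0.14 and did not pass either (adjusted p = 0.256). Igfals, Igfbp1, both Igfbp2 probes and Angptl4 differed by 0.06, 0.01, -0.16, -0.09 and 0.04 on the log2 scale, with adjusted p from 0.803 to 0.989.

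On the LF diet, HF_LF against LF_LF, none of the 12289 probes passed (0%, limma), with 803 probes and 0 of the 9 member probes at an unadjusted p under 0.05. Igf1 ranged from 3859 to 5657 in HF_LF, against 4622 to 5856 in LF_LF, with 8 of 9 HF_LF mice below the LF_LF median (difference -0.13 ± 0.07, adjusted p = 0.768). Fgf21 ranged from 183 to 634.3 in HF_LF, against 177.6 to 334.2 in LF_LF (difference 0.29 ± 0.19, adjusted p = 0.842, and 0.14 ± 0.16 without HF_LF replicate 4). The remaining differences lay between -0.18 for Angptl4 and 0.18 for the brighter Igfbp2 probe.

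**Figure D3:**
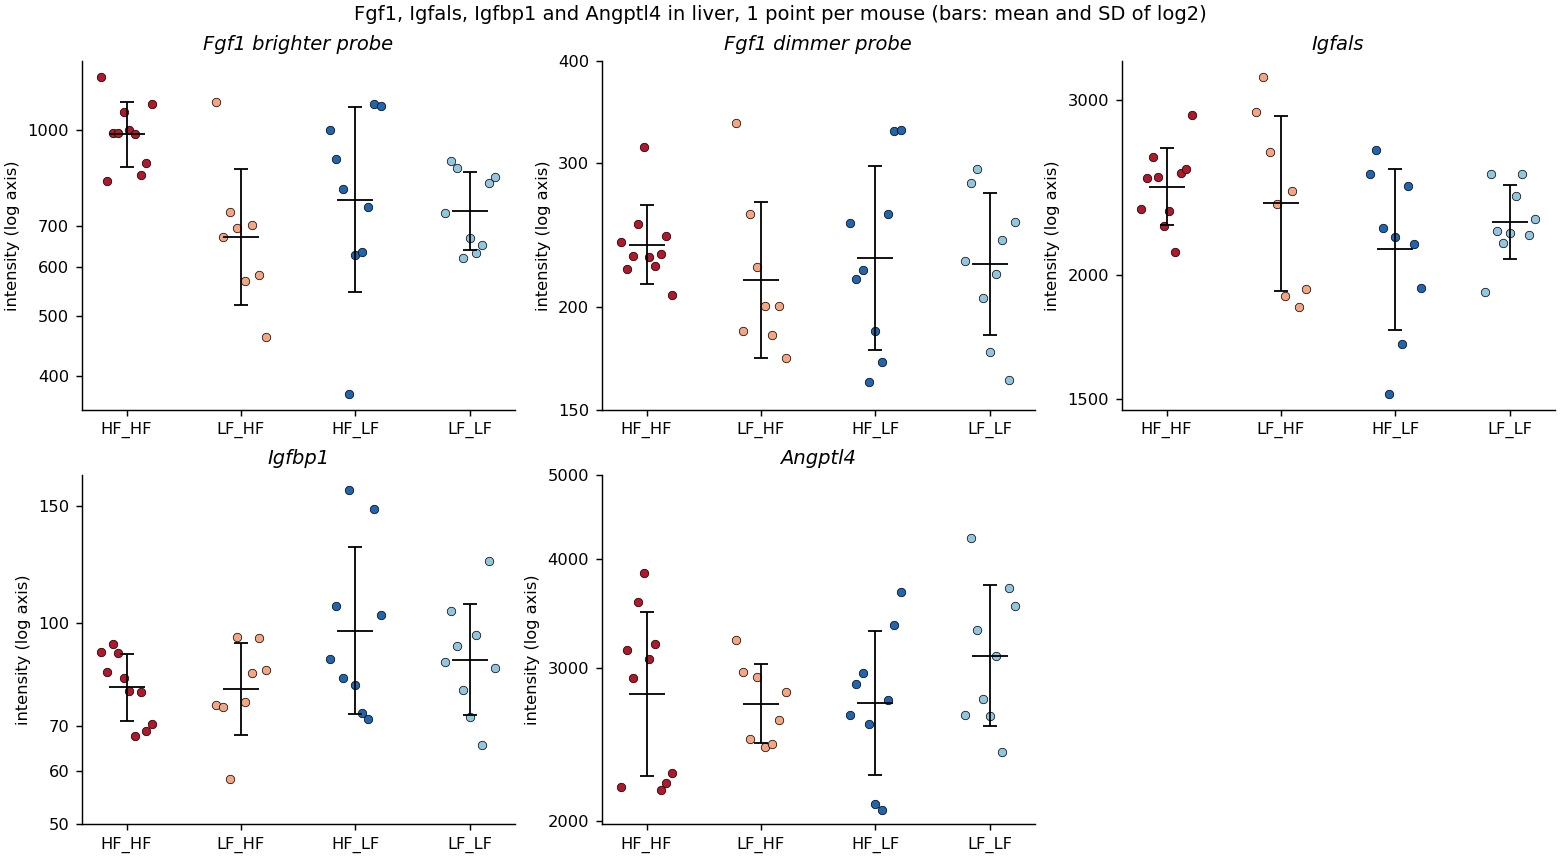
Intensity (log axis) of both Fgf1 probes, Igfals, Igfbp1 and Angptl4 in the liver of each mouse, by diet of the dam and then of the pup, with the mean and SD of the log2 values as bars. At the brighter Fgf1 probe 7 of the 8 LF_HF mice lie below the lowest HF_HF mouse, at 827.1, and HF_LF replicate 4 is lowest at 374.4.

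Whether the post-weaning difference itself depended on the maternal diet was tested as the interaction over all 4 groups. None of the 12289 probes passed (0%, limma), with 776 probes and 2 member probes at an unadjusted p under 0.05. These were Igf1, whose post-weaning difference in pups of HF dams less that in pups of LF dams was 0.26 ± 0.09 (p = 0.00873 unadjusted in the limma fit, adjusted p = 0.640), and the brighter Fgf1 probe, at 0.49 ± 0.21 (p = 0.0230 unadjusted in the limma fit, adjusted p = 0.705). The Igf1 rise in pups of HF dams and the uncalled difference in pups of LF dams are therefore not shown to differ. For Fgf21 the interaction was -0.22 ± 0.41 with all mice (adjusted p = 0.969) and of the opposite sign, 0.18 ± 0.26, without LF_HF replicate 8 (adjusted p = 0.971).

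Ordered by mean log2 level, Fgf21 was highest in HF_LF (8.17), then LF_LF (7.88), HF_HF (7.43) and LF_HF (7.37). With all mice, the step between LF_LF and HF_HF was the only one among the 9 probes that exceeded the SD of both neighbouring groups. Without LF_HF replicate 8, left out after seeing the data, the mean of LF_HF was 6.96 and the Fgf21 step between HF_HF and LF_HF, 0.47, also exceeded both SDs. Igf1 and Igfals shared the order HF_HF, LF_HF, LF_LF and HF_LF, and Igfbp2 ran HF_LF, LF_LF, LF_HF and HF_HF at both probes. For Igf1 the steps between neighbours were 0.04 to 0.13 on the log2 scale, and none exceeded the SD of both groups.

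Body size moved with the post-weaning diet. Length averaged 102.6 ± 1.06 mm in HF_HF (SD, n = 8, with no length label for 2 mice) and 97.9 ± 2.15 mm in HF_LF (SD, n = 9), a difference of 4.74 mm (exact two-sided permutation test, adjusted p = 0.00066 over 4 comparisons). In pups of LF dams it averaged 102.5 ± 2.2 mm in LF_HF (n = 8) and 99.6 ± 1.33 mm in LF_LF (n = 9), a difference of 2.94 mm (exact permutation, adjusted p = 0.013). With 1 mean per cage neither passed (adjusted p = 0.0636 and 0.212, exact permutation of cage means). The maternal differences were 0.125 mm on HF and -1.67 mm on LF (adjusted p = 1.0 and 0.117, exact permutation). The second weight in the labels, which the labels place at weaning although it lies between 20.38 g and 34.06 g, averaged 30.5 ± 1.68 g in HF_HF, 30.1 ± 2.05 g in LF_HF, 23.6 ± 1.87 g in HF_LF and 24.6 ± 1.12 g in LF_LF (SD). The age it belongs to was not settled here. Since the diets set these labels, the members were related to them only within diet groups.

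Igfbp1, whose product binds Igf1 in blood, had negative slopes on all 3 size labels within groups. They were -0.10 ± 0.02 on the log2 scale for each g of the second weight (p = 7.34e-05 unadjusted in the limma fit, adjusted p = 0.343), -0.08 ± 0.02 for each mm of length (adjusted p = 0.468) and -0.15 ± 0.04 for each g at 3 weeks (adjusted p = 0.286). None of these passed over the 12289 probes. For each of the 3 labels 0% of probes passed, with 852, 851 and 949 probes and 4, 4 and 1 member probes at an unadjusted p under 0.05. Among the 18 pups on LF, Igfbp1 correlated with the second weight at r = -0.701 (Spearman rho = -0.709, permutation p = 0.00372 and 0.0026) and with length at r = -0.723 (rho = -0.735, permutation p = 0.00225 and 0.00176). Without the 2 mice farthest from the median label these were -0.652 and -0.702. Among the 18 pups on HF it was -0.55 with the second weight (rho = -0.482, permutation p = 0.025 and 0.0542) and -0.36 without the 2 farthest mice, and among the 16 with a length label it was -0.105 with length (rho = -0.179, permutation p = 0.749 and 0.522). With the weight at 3 weeks r was -0.604 on LF (rho = -0.736, permutation p = 0.00921 and 0.00096) and -0.513 on HF (rho = -0.459, permutation p = 0.0292 and 0.0629). Without the 2 farthest mice these were -0.629 and -0.541.

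The highest Igfbp1 levels, 158.6 and 148.3, belonged to HF_LF mice of 22.75 g and 20.38 g with lengths of 97 mm and 95 mm, and the lowest, 58.4, belonged to an LF_HF mouse of 32.6 g. The probe is dim, with 5 of 36 mice below the median of all values (71.5), and since no background was subtracted its differences are understated. These 42 correlations (7 genes, 3 labels and 2 post-weaning diets) included 9 with a permutation p under 0.05, and 6 without the 2 farthest mice. They were not adjusted over the 7 genes alone, since the genes were chosen with earlier results known.

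Fgf21 correlated with length among pups on HF at r = 0.607 over 16 mice (rho = 0.323, permutation p = 0.0468 and 0.22), and this rests on 1 mouse. LF_HF replicate 8, with the highest Fgf21, was also the longest mouse at 106 mm, and without it r was 0.231 (permutation p = 0.375). Leaving out LF_HF replicates 1 and 4 as the mice farthest from the median length gave 0.815, with replicate 8, as far from the median as replicate 4, kept. Among HF_HF mice alone Fgf21 correlated with length at 0.832 over 8 mice and with the second weight at 0.725 over 10 mice, given as a description. The brighter Fgf1 probe correlated with length at -0.582 in pups on HF (rho = -0.246, permutation p = 0.0497 and 0.374) and at -0.401 without replicate 8 (permutation p = 0.212). Within the groups the signs were opposite, at 0.497 in HF_HF and -0.862 in LF_HF (8 mice each), given as a description. Igf1 showed little relation to length within groups, at r = -0.144 in pups on HF and 0.322 in pups on LF (permutation p = 0.695 and 0.212).

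Igfbp2 and Angptl4 gave 1 relation each. Igfbp2 correlated negatively with the second weight among pups on HF (r = -0.511, rho = -0.546, permutation p = 0.0347 and 0.0245), and r was -0.373 without the 2 farthest mice. Angptl4 correlated negatively with the weight at 3 weeks among pups on LF (r = -0.541, rho = -0.531, permutation p = 0.027 and 0.0305), and r was -0.59 without the 2 farthest mice.

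**Figure D4:**
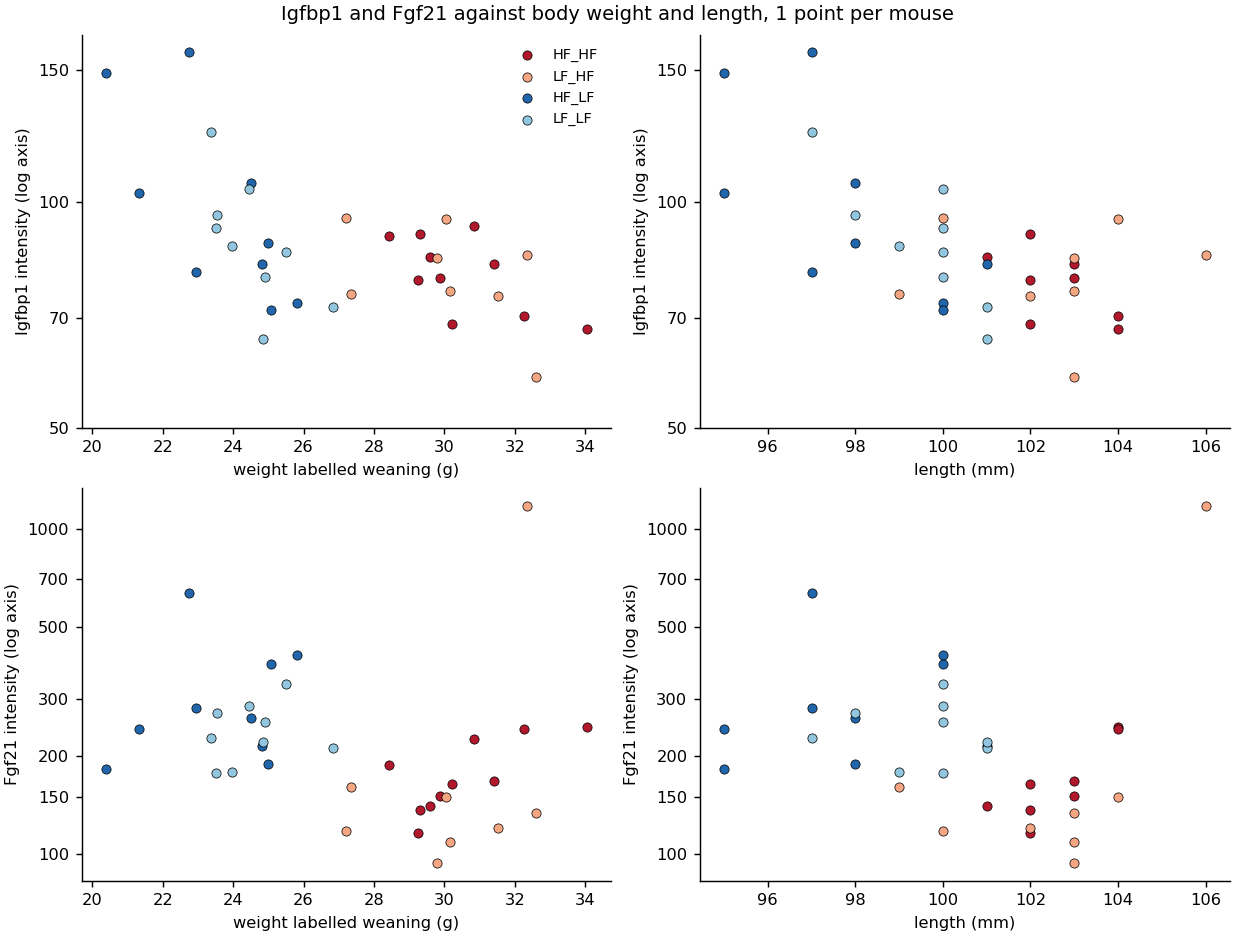
Intensity (log axis) of Igfbp1 (top) and Fgf21 (bottom) against the second weight in g and against length in mm, 1 point per mouse and coloured by group. Igfbp1 declines with size among pups on LF (r = -0.701 and -0.723), and the Fgf21 value of 1176 belongs to the longest mouse at 106 mm.

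Among themselves, with group means removed, the members formed few tight pairs. Of the 21 pairs of genes, 6 had a permutation p under 0.05 over the 36 mice and 3 without LF_HF replicate 8 and HF_LF replicate 4. The 3 include Fgf1 with Igfbp1, which was not among the 6 (r = -0.0233 with all mice and 0.403 without those mice). Igf1 and Igfbp1 correlated at -0.429 (rho = -0.282, permutation p = 0.0154 and 0.107), which became -0.307 without those mice. Fgf1 and Igfals correlated at 0.536 (rho = 0.373, permutation p = 0.00636 and 0.0444), which became 0.320 without those mice, and Fgf21 and Fgf1 at -0.473 (rho = -0.318, permutation p = 0.0216 and 0.0755), which became -0.107. Igf1 and Igfals, which meet in the same circulating complex, correlated at 0.425 (rho = 0.356, permutation p = 0.0291 and 0.0453) and at 0.269 without those mice. The relations of Angptl4 moved less, at 0.434 with Fgf1 (rho = 0.518, permutation p = 0.00613 and 0.0017) and 0.442 with Igfbp1 (rho = 0.429, permutation p = 0.00886 and 0.0115), against 0.550 and 0.528 without those mice. Between cages lay 46.7% (Fgf21) to 78.4% (Angptl4) of the within-group variance, beside 40.6% of the within-group degrees of freedom (13 of 32).

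**Figure D5:**
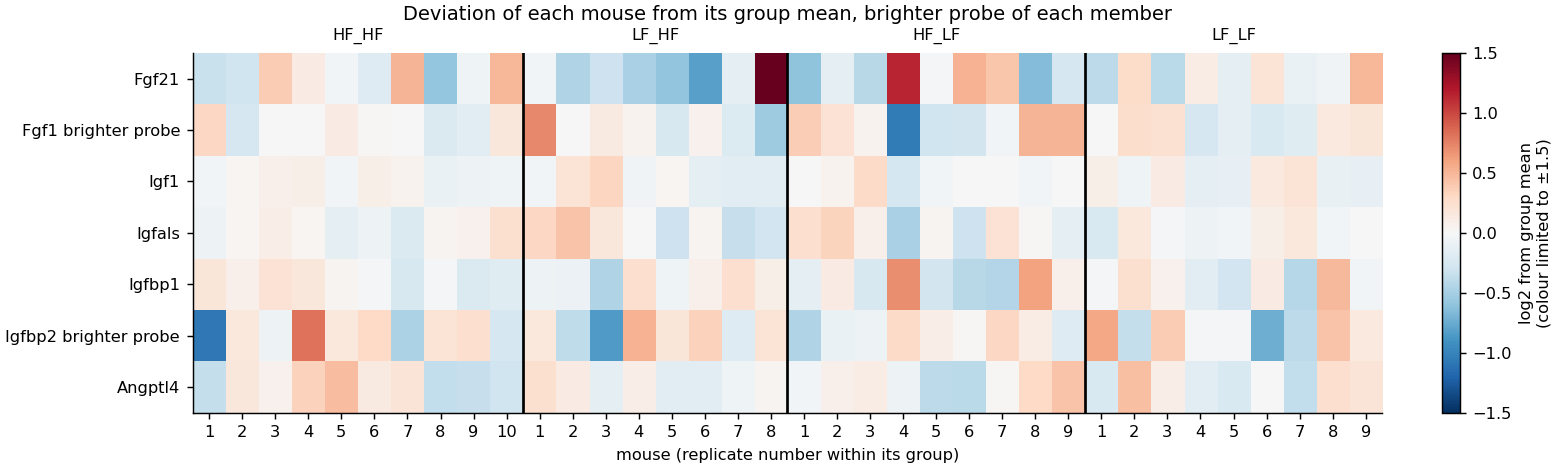
Difference of each mouse from the mean of its group on the log2 scale (colour) for the brighter probe of each member, with mice ordered by group and replicate. LF_HF replicate 8 and HF_LF replicate 4 carry the darkest Fgf21 cells, and HF_LF replicate 4 is also low for Fgf1 and Igfals and high for Igfbp1.

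The genes whose levels ran closest to each member, out of 8537 others and with group means removed over the 36 mice, were found by Pearson correlation. Angptl4 had the closest, Tsc22d3 at 0.819, Rgs16 at 0.800 and Spata2l at 0.713, which were 0.827, 0.829 and 0.721 without the pair of mice that stand apart. For Fgf21 they were Iars at 0.646, Angptl8 at 0.618 and Ets2 at 0.618, and without those mice only Angptl8 stayed near its value (0.628), with Iars at 0.324 and Ets2 at 0.267. Igf1 ran closest to Trir (0.718), Necap1 (0.717) and Arhgap26 (0.696), Fgf1 to Gm826 (0.746), Crcp (0.738) and Aatk (0.734), and Igfals to Tollip (0.707), Rabggta (0.676) and Fahd1 (0.661). Igfbp1 ran closest to Slc37a4 (0.710), Gng5 (0.706) and Hrg (0.703), and Igfbp2 to Ehhadh (0.654), Rbp4 (0.601) and Abca8a (0.590).

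Genes that act around the members were described from 7 pathway lists, chosen with earlier results of these data known. Their counts stand beside the shares of all probes tested. Between HF_HF and HF_LF 5.15% rose and 6.11% fell, and between LF_HF and LF_LF 1.77% rose and 1.29% fell. Between HF_HF and LF_HF 0.0732% rose and 0.195% fell, and between HF_LF and LF_LF 0% passed. No list count was tested against these shares. In growth hormone and STAT5 signalling, which drives Igf1, 2 of 9 tested genes rose and 1 fell between HF_HF and HF_LF. Cish, a feedback inhibitor of cytokine receptors, ranged from 195.6 to 656.4 with a median of 273.1 in HF_HF, against 409.5 to 1296 with a median of 843.5 in HF_LF (-1.23 ± 0.23, adjusted p = 0.00144). Bcl6, a transcriptional repressor, had medians of 1033 in HF_HF and 440.1 in HF_LF (1.13 ± 0.26, adjusted p = 0.00727), and Stat5a, a transcription factor of the pathway, rose by 0.22 ± 0.07 (adjusted p = 0.0446). Cish also fell between HF_HF and LF_HF (-1.21 ± 0.26, adjusted p = 0.0486), with a median of 711.7 in LF_HF, and no gene of the list passed between LF_HF and LF_LF or between HF_LF and LF_LF. The median difference of the list was 0.08 between HF_HF and HF_LF, where that of all probes was -0.01. Of the IGF system other than the members, 0 of 11 tested genes passed in each of the 4 comparisons.

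Among FGF receptors and regulators of Fgf21, 0 of 11 rose and 2 fell between HF_HF and HF_LF, against 5.15% and 6.11% of all probes. Klb, which encodes the co-receptor beta-klotho, had medians of 190.9 in HF_HF and 243 in HF_LF (-0.42 ± 0.09, adjusted p = 0.00286), and Ppargc1a, a coactivator of fasting genes, fell by 0.43 ± 0.10 (adjusted p = 0.00937). Klb was the 1 of 11 that fell between LF_HF and LF_LF, with medians of 192.5 and 260.7 (-0.37 ± 0.09, adjusted p = 0.0261). In pups of HF dams Fgf21 and Klb thus both fell, while in pups of LF dams Fgf21 passed only without LF_HF replicate 8 or cage 11.

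Of the 7 tested insulin- and glucagon-responsive genes, 3 fell between HF_HF and HF_LF (against 6.11% of all probes) and 1 between LF_HF and LF_LF (against 1.29%). G6pc, the last enzyme of glucose release, was in both, with medians of 3336 in HF_HF and 5966 in HF_LF (-0.69 ± 0.21, adjusted p = 0.0400) and of 2925 in LF_HF and 6519 in LF_LF (-1.07 ± 0.19, adjusted p = 0.00283). Ppargc1a (above) and Sesn1 (-0.20 ± 0.06, adjusted p = 0.0212) were the others. Of the 9 tested target genes of PPARalpha, the fatty acid receptor that also induces Fgf21 and Angptl4, 1 fell in each post-weaning comparison. The shares of all probes that fell were 6.11% in pups of HF dams and 1.29% in pups of LF dams. The gene was Acot1, an acyl-CoA thioesterase with close paralogs (-0.96 ± 0.30, adjusted p = 0.0413 in pups of HF dams and -1.06 ± 0.29, adjusted p = 0.0449 in pups of LF dams). Differences lay below 0 for 7 of the 9 in pups of HF dams (median -0.115, all probes -0.00614). In pups of LF dams they did for all 9 (median -0.147, all probes -0.00313). Between HF_HF and LF_HF all 9 lay above 0 (median 0.137, all probes -0.00566). The list was not tested as a set.

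Of the 7 tested genes around lipoprotein lipase and the angiopoietin-like proteins, Apoa5, an activator of the lipase, fell in both post-weaning comparisons. Its levels ranged from 592.4 to 965.3 in LF_HF, against 1125 to 1574 in LF_LF (-0.63 ± 0.09, adjusted p = 0.000516), and the difference between HF_HF and HF_LF was -0.44 ± 0.10 (adjusted p = 0.00621). Lmf1, a maturation factor of the lipase, ranged from 623.4 to 718.5 in HF_HF, against 510.3 to 596.5 in HF_LF (0.30 ± 0.05, adjusted p = 0.000295). Of 11 other tested genes for hormones and proteins that the liver secretes, 1 rose and 3 fell between HF_HF and HF_LF, against 5.15% and 6.11% of all probes. Fetub, a fetuin, rose by 0.49 ± 0.08 (adjusted p = 0.000398), and Inhba, an activin subunit, Fst, which binds activins, and Ambp, the precursor of alpha-1-microglobulin and bikunin, fell by 0.40 ± 0.11, 0.21 ± 0.06 and 0.15 ± 0.04 (adjusted p = 0.0262, 0.0240 and 0.0194). Hamp, which encodes the iron hormone hepcidin, was the 1 that fell between LF_HF and LF_LF (-0.37 ± 0.10, adjusted p = 0.0442). No gene of these other lists passed in either maternal comparison.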

How the data were processed

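Liver RNA of each of the 36 mice was hybridised to an Illumina MouseRef-8 v2.0 array. The values are intensities on a linear scale that the authors quantile-normalized before they deposited them, with BeadStudio (version not given in the sources used here) listed as software in the submitters' processing notes. No background had been subtracted, which shrinks fold changes of dim probes. Groups came from the labels. Probes were named from the platform annotation, where 23978 had 1 symbol and 1719 none.

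Intensities were taken to log2, and probes with a median below that of all values (71.5) were left out, 13408 in all. Groups were compared with limma 3.58.1 (lmFit, eBayes with a variance trend) in R 4.3.3, each pair fitted alone, with Benjamini-Hochberg adjustment over 12289 probes. Interaction and slopes used all groups. Correlations used 100000 permutations, and lengths an exact permutation test, with scipy 1.17.1. On simulated data with the groups of the comparison in pups of HF dams, over 12289 probes, 54.8% of probes changed 1.2-fold and 96.4% of those changed 1.5-fold were recovered. The simulated mice varied independently, with no shared cages and no outlying mice. These shares therefore do not show how many such changes the real data could recover. The number of arrays limits the precision, and p-values measure the spread between mice, which shared cages. Slide and scan were not analysed here.

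Alternatives were cage as a random or fixed block, 1 mean per cage, all groups in 1 fit, other filters, background subtraction, no variance trend and leaving out each mouse or cage. The genes and lists were chosen with earlier results of these data known. Named genes are the members, up to 4 genes per list and comparison that passed, by lowest adjusted p, and the 3 genes most correlated with each member.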

Additional observations from a re-analysis of the deposited data

Results flagged for a closer look

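Of the 36 combinations of member probe and diet group, 3 had an extreme mouse whose gap to its nearest neighbour took a larger share of the group's range than Dixon's 95% critical value allows, where chance gives about 1 in 20. For Fgf21 in LF_HF, replicate 8 (1176, next 160.5) had a gap of 0.788 of the range on the log2 scale. For the dimmer Fgf1 probe in HF_HF, replicate 5 (314.4, next 252.7) had a gap of 0.522. For the dimmer Igfbp2 probe in HF_HF, replicate 1, the only HF_HF mouse of cage 10 (396.2, next 867.2), had a gap of 0.545.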

How the results depend on the processing

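Between HF_HF and HF_LF 4 member probes passed, against 2 to 5 with 1 mouse or cage left out (2 without cage 23, where Fgf21 and the dimmer Igfbp2 probe were lost). Between HF_HF and LF_HF 1 passed, against 0 with cage as a random block, 0 with 1 mean per cage, 0 with all 4 groups in 1 fit, 0 with no filter, and 0 to 1 with 1 mouse or cage left out. Between LF_HF and LF_LF 0 passed, against 1 with cage as a fixed block (the dimmer Igfbp2 probe) and 0 to 1 with 1 mouse or cage left out (Fgf21, without LF_HF replicate 8 or cage 11). No member passed in the other comparisons under any alternative run. Length differed by 4.15 mm between HF_HF and HF_LF and by 2.42 mm between LF_HF and LF_LF with 1 mean per cage, neither passing. Pairs of members with a permutation p under 0.05 numbered 6, against 3 without the 2 mice farthest from the median and 3 without LF_HF replicate 8 and HF_LF replicate 4, an alternative chosen after seeing the data. Under both alternatives the 3 included Fgf1 with Igfbp1, which was not among the 6 (r = 0.403 under each). For this pair both alternatives left out the same 2 mice, so they are 1 check and not 2.

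Over all probes, calls between HF_HF and HF_LF numbered 1384, against 371 with 1 mean per cage and 890 with cage as a fixed block. Calls between LF_HF and LF_LF numbered 376, against 30 and 42 under the same settings. Calls between HF_HF and LF_HF numbered 33, against 0 with 1 mean per cage, 4 with cage as a random block and 21 with no filter. With 1 mouse or cage left out these counts ran from 636 to 1443, from 113 to 439 and from 1 to 68. The causes were not tested. No paired analysis was possible because replicate numbers, given in accession order, pair no mice. Cages did hold pups on both diets, 3 cages of HF dams and 2 of LF dams, and cage served as a block in the values given above. As a fixed block it compares the post-weaning diets within these cages. Housing after weaning is not in the labels, so it was not blocked.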

Other observations

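LF_HF replicate 8 was also the highest or lowest of its group in some genes that were no members, chosen after its values were seen. Of the 62 tested genes of the pathway lists it was highest for 10 and lowest for 3, a share close to its share over all probes, given below. Angptl8 was 611.9 in this mouse, against 156.5 to 425.8 in the other mice of its group. Atf4, a transcription factor of the amino acid and stress response, was 760.6 in it, against 296.9 to 475.5 in the other mice of its group. Inhbe, an activin subunit made by the liver, was 473.6 against 154.8 to 343.3. Ppargc1a was lowest in it, at 93.2 against 102.5 to 149.5. This mouse was also highest for Ptpn1, Igf2, Igfbp3, Cidec, Plin2, Gpihbp1 and Apoc2, and lowest for Jak2 and Igf2r. What set this mouse apart was not tested. Over all probes tested it was the highest or lowest of its group for 20.8%, within the range of 11.4% to 40.8% over the 36 mice, and HF_LF replicate 4 was so for 38.3%.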
